A study of Mus musculus with 9 samples.

Results

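The mouse olfactory receptor genes with symbols from Olfr828 to Olfr980 form a set of 100 genes, each measured by 1 probe set that the array's annotation gives to that gene alone, out of 23410 probe sets with a gene symbol. The members were chosen by the number in their symbol, without the pseudogene suffix, and not by any measured value. All 100 matched the RefSeq gene table, where all lie on chromosome 9. RefSeq classes 98 of them as protein coding, Olfr908 as a transcribed pseudogene and Olfr915 as a miscellaneous RNA. In chromosome order they fall into 2 blocks separated by the largest gap between neighbouring gene starts, a proximal block of 30 genes (Olfr828 to Olfr873) and a distal block of 70 genes (Olfr874 to Olfr980). The RefSeq synonyms place them in 25 families of the MOR naming scheme, and no family had members in both blocks.

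Olfactory receptors are G protein-coupled receptors of the cilia of olfactory sensory neurons, and each mature neuron transcribes 1 allele of 1 receptor gene out of the whole repertoire. An odour bound to the receptor activates the G protein subunit encoded by Gnal, then the adenylyl cyclase Adcy3 and the cyclic nucleotide-gated channel subunit Cnga2. Choice of a receptor gene depends on enhancers bound by Lhx2, Ebf factors and Ldb1, and the receptor proteins need the escort proteins Rtp1 and Rtp2 to reach the cilia. A whole-mucosa RNA sample therefore holds each receptor's transcripts from the small share of neurons that chose it, and fewer such neurons and less RNA per neuron cannot be told apart in these data.

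RNA of nasal mucosa from BALB/c mice, labelled male and 6 to 8 weeks old, was measured on Affymetrix Mouse Gene 1.0 ST arrays in an allergic rhinitis model. The 4-week group (3 arrays) received ovalbumin (OVA) as sensitizer and as challenge and was killed 4 weeks after the final challenge. The OVA group (3 arrays) had the same ovalbumin exposure and was killed 2 hours after the final challenge. The control group (3 arrays) was given saline at both steps, and its time of killing is not given in the labels. Nothing in the labels says that the 3 arrays of a group came from separate animals, so the p-values rest on a spread between samples that may be technical alone, and 3 arrays per group limit the precision.

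The 3 arrays labelled control did not match the sex in their labels. Xist, the transcript that drives X inactivation in females, read 4.27, 4.31 and 4.42 on the log2 scale on the 4-week arrays, 4.36, 4.29 and 4.22 on the OVA arrays, and 10.62, 10.70 and 11.11 on the arrays labelled control. The Y-linked gene Eif2s3y ran the other way, at 8.15 to 8.46 in the 4-week group, 8.08 to 8.47 in the OVA group and 3.00 to 3.58 on the arrays labelled control. In both contrasts against the arrays labelled control, treatment and this sex pattern cannot be told apart. Only when 4-week arrays were set against OVA arrays did all 6 arrays carry the same pattern. Any difference in age at killing between the 4-week and OVA groups cannot be told apart from time since challenge.

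The other whole-array measures were alike. Array medians lay between 6.38 and 6.45, and arrays of 1 group correlated at 0.986 to 0.992 over all probe sets, against 0.973 to 0.988 between groups. As a check of the tissue, Omp, the olfactory marker protein of mature olfactory neurons, read 11.47 to 12.08 in the 4-week group, 11.69 to 11.91 in the OVA group and 12.08 to 12.43 in the control group. All values are log2 expression; no detection calls were used, and signals of different probe sets are not comparable as levels.

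The upstream sequences of 4 members are shown here because these genes had the largest changes described below, or in 1 case repeated motif matches, and their RefSeq models begin before the start codon. Each run holds the 250 bases before the gene start, read in the direction of transcription from the RefSeq table of build GRCm38.p6. Capitals mark matches to TAATTA or TAATGA, 6-base core sequences of the kind bound by homeodomain factors such as Lhx2, on either strand. A match is a description of these letters and not evidence of a bound site.
Olfr868: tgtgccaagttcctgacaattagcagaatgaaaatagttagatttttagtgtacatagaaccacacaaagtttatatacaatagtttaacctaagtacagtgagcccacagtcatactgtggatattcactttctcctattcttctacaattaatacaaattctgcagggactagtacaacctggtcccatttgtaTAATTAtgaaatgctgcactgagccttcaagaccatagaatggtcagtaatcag
Olfr843: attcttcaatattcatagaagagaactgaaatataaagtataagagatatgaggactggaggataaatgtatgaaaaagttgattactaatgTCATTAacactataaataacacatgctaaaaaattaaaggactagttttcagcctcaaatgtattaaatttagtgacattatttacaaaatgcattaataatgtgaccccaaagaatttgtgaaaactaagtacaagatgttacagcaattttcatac
Olfr872: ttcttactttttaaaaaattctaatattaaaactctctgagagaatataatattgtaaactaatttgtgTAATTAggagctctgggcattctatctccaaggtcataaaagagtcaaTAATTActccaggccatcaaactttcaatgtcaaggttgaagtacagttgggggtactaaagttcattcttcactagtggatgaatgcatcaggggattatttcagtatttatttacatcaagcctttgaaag
Olfr910: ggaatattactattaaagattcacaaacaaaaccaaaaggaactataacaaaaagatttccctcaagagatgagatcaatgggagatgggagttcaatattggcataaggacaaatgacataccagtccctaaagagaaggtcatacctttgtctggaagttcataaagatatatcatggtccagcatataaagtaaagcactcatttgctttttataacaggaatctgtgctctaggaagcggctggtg

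The Olfr868 run spans chr9:20098376-20098625 on the plus strand and holds TAATTA 54 bases before the gene start. The Olfr843 run spans chr9:19249464-19249713 on the minus strand and holds TAATGA on the opposite strand, read here as TCATTA, 158 bases before the start. Olfr872, at chr9:20236912-20237161 on the plus strand, has TAATTA 181 and 133 bases before its start. The Olfr910 run, chr9:38537632-38537881 on the plus strand, has neither sequence in this window, from which nothing follows about binding.

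Over the wider window given for each gene, 250 bases before to 50 bases after the start, 87 members had a sequence in the table. TAATTA was present in 21 of them (24.1%), against 18.2% of the windows of 853 other olfactory receptor genes and 5.31% of 27025 windows of all genes. TAATGA was present in 23 (26.4%), against 29.0% and 9.99%, and TATAAA, known from core promoters, in 44 (50.6%), against 40.3% and 14.2%. The palindromic 10-base core motif of Ebf factors was found in 0 of the 87 windows, against 0.586% and 0.914%. Both strands were searched, and neighbouring matches may share bases. TAATTA or TAATGA occurred in 19 of 26 proximal windows (73.1%) and in 18 of 61 distal windows (29.5%). TATAAA was also more frequent in proximal windows, at 65.4% against 44.3% of distal windows. For 59 of the 87 members (67.8%) the gene model begins at the ATG itself, so that their window is set on the coding region. This held for 57.7% of proximal and 72.1% of distal windows. It held for 73.4% of the windows of other olfactory receptors and 6.75% of all windows, so the windows compared are not placed alike.

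Across the 100 members the mean over the 9 arrays ran from 2.5 to 8.38 with a median of 5.44. The members with the highest mean were Olfr923, Olfr958, Olfr959, Olfr961, Olfr877, Olfr847, Olfr918, Olfr937, Olfr876 and Olfr972, and those with the lowest were Olfr834, Olfr926, Olfr832 and Olfr837. Only 38 of the 100 lay in the upper 60% of all probe sets by mean, 5 in the proximal and 33 in the distal block. The median residual SD between arrays of a group was 0.238 over the members and 0.122 over all probe sets.

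The widest spread inside 1 group belonged to Olfr948, Olfr923, Olfr910 and Olfr960. Olfr948 read 7.31, 6.02 and 5.70 in the 4-week group, 6.22, 6.53 and 5.94 in the OVA group, and 7.04, 7.22 and 6.87 in the control group. Olfr923 read 7.55, 8.33 and 8.88 in the 4-week group, 8.48, 8.79 and 8.85 in the OVA group, and 7.83, 8.15 and 8.58 in the control group. In both genes the 4-week arrays spanned the values of the other groups, and neither gene passed the test in any contrast.

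In the OVA group, 2 hours after challenge, 4 of 100 members differed from the control group at an adjusted p under 0.05 in limma's moderated test, against 1.3% of all probe sets. Olfr868, Olfr910 and Olfr854 fell and Olfr904 rose. The 3 lower calls set against 100 members compare with 0.521% of all probe sets called lower in this contrast, and the 1 higher call with 0.782%. Among the 915 other olfactory receptor genes, 45 were called lower (4.92%) and 0 higher. Proximal members had a median log2 change of -0.51 and distal members one of 0.03, with 27 of 30 and 32 of 70 values negative. The distal median had no stable sign, at -0.01, -0.002 and -0.03 without OVA replicate 3, control replicate 1 or control replicate 2, and it was 0.06 without OVA replicate 1 and 0.09 without control replicate 3. The proximal median lay between -0.53 and -0.35 in the fits without 1 array. The count of 4 became 0 without OVA replicate 1 or OVA replicate 3, 1 without control replicate 2, 2 without 4-week replicate 3, control replicate 1 or control replicate 3, and 7 without 4-week replicate 1, which enters through the shared estimate of the spread.

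Olfr868, of family MOR145 in the proximal block, read 5.20, 4.18 and 4.36 in the 4-week group, 4.66, 5.10 and 4.77 in the OVA group, and 6.48, 7.18 and 6.92 in the control group. Every control array lay above all arrays of the other groups, which overlapped each other. In the OVA group it was 4.06-fold lower than in the control group (log2 change -2.02, SE 0.27, limma adjusted p = 0.0145), and the call was lost when OVA replicate 1, OVA replicate 3 or control replicate 2 was left out, with adjusted p up to 0.0686.

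Olfr910, a distal member of family MOR165, read 6.35, 5.64 and 5.45 in the 4-week group, 5.16, 4.73 and 4.39 in the OVA group, and 7.26, 7.11 and 5.94 in the control group. The OVA arrays were the lowest of all 9, and the 4-week arrays lay above them and overlapped the control arrays, the lowest of which read 5.94. The OVA value was 4.01-fold below control (log2 change -2.00, SE 0.37, limma adjusted p = 0.0415), and the call held only without 4-week replicate 1 or control replicate 3 among the 9 fits that left out 1 array, with adjusted p up to 0.142.

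Olfr854, of family MOR147, read 3.72, 3.69 and 3.82 in the 4-week group, 3.60, 3.82 and 3.81 in the OVA group, and 4.62, 4.28 and 4.38 in the control group. Its OVA and 4-week arrays covered overlapping narrow ranges, below every control array. The OVA value was 1.6-fold lower (log2 change -0.68, SE 0.10, limma adjusted p = 0.0192). Without OVA replicate 1, OVA replicate 3 or control replicate 3 the adjusted p rose to at most 0.0698, and the call was also lost with the compared groups only and with arrays centred on the other receptors (adjusted p up to 0.110).

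The member called higher was Olfr904, of family MOR167 in the distal block, with 6.09, 5.76 and 6.10 in the 4-week group, 6.58, 6.34 and 6.53 in the OVA group, and 5.83, 5.64 and 5.94 in the control group. Its 3 OVA arrays stood above the other 6, and the 4-week and control arrays overlapped. It rose 1.6-fold in the OVA group against control (log2 change 0.68, SE 0.12, limma adjusted p = 0.0355), a call kept in 2 of the 9 fits without 1 array, those without 4-week replicate 1 or 2, with adjusted p up to 0.129 in the others. With every row of the table or the compared groups only, the OVA calls for Olfr904 and Olfr910 were both lost (adjusted p up to 0.0705 and 0.0854).

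**Figure D1:**
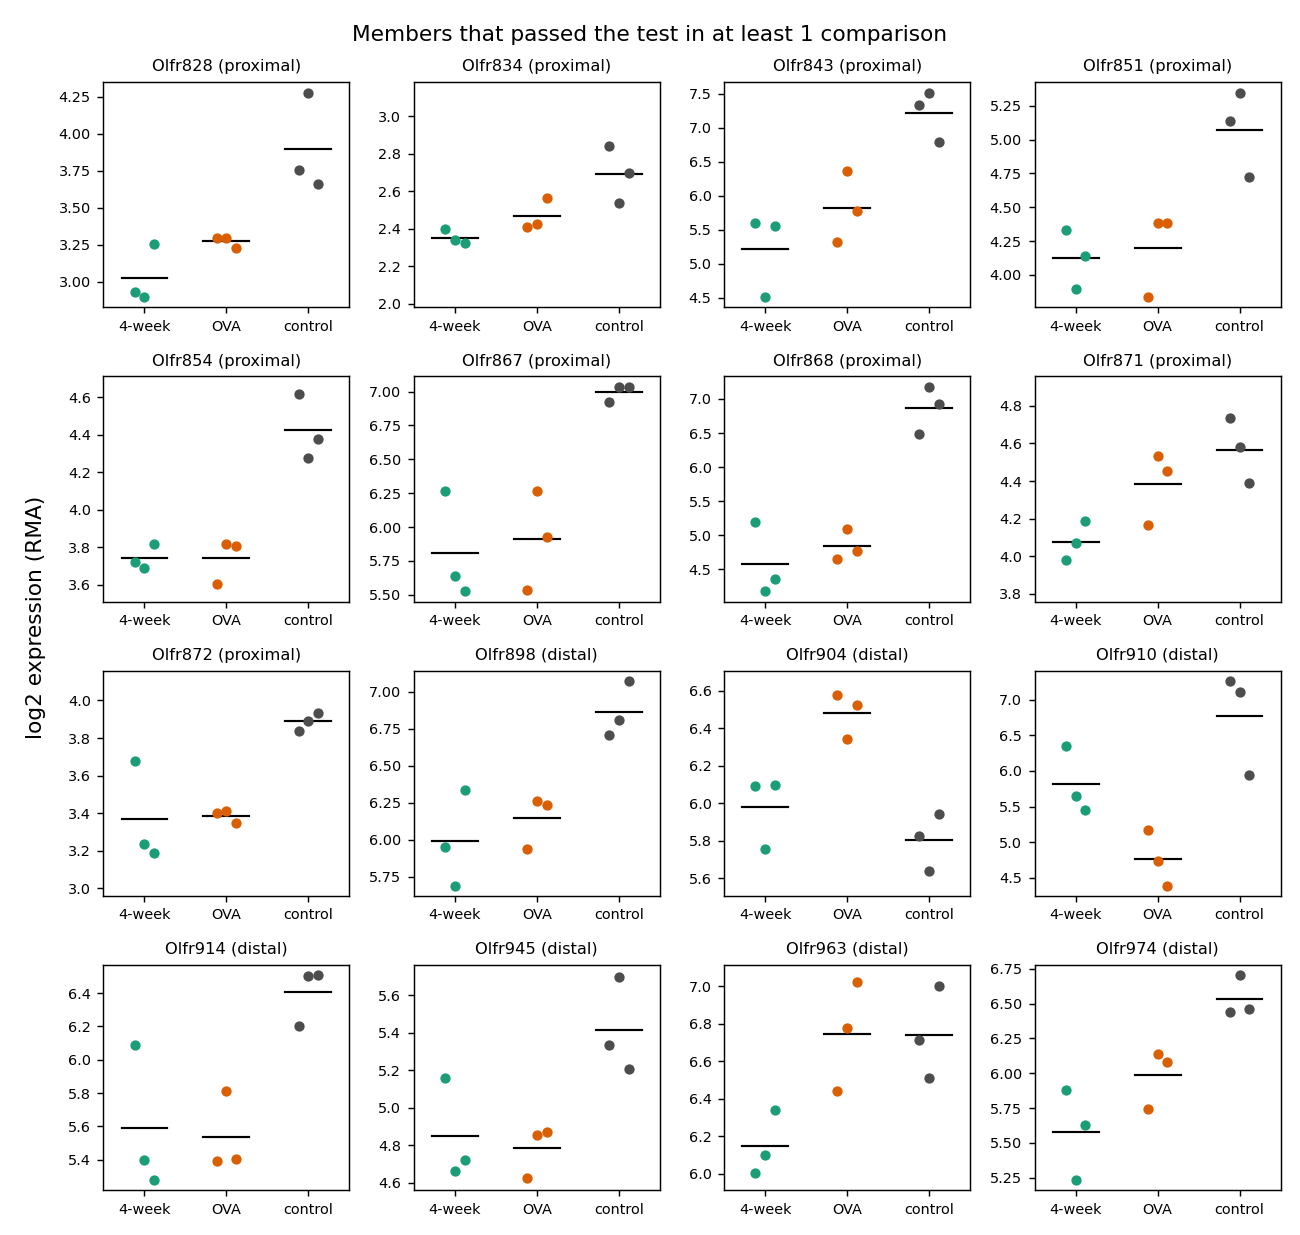
Log2 expression (vertical axis, its range set for each gene) of the 16 members that passed the test in at least 1 contrast, with 1 point per array and a bar at the mean of 3 arrays; groups run 4-week, OVA and control from left to right. For Olfr868 the control arrays read 6.48 to 7.18 and all other arrays 4.18 to 5.20, and for Olfr904 the OVA arrays stand highest.

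Among members that missed the threshold, Olfr867 came closest in this contrast, with a log2 change of -1.09 (SE 0.22) and an adjusted p of 0.0525. The higher side was filled by Olfr976 (log2 change 0.51, adjusted p = 0.115), Olfr847 (0.61, 0.138) and Olfr916 (0.28, 0.177), all from limma's test. OVA and control arrays did not overlap in 6 members that were higher and 30 that were lower in the OVA group, against 10.4% and 11.1% of all probe sets. Of the 30 lower ones, 18 were proximal. Among the 915 other olfactory receptor genes, 50 were higher and 301 lower without overlap. At an unadjusted p under 0.05, 7 members were higher and 29 lower, against 8.45% and 7.92%.

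Between the 4-week and the OVA group, where both sides carried the same sex-linked pattern, 1 of 100 members passed the test, against 6.33% of all probe sets. Olfr904 fell 1.41-fold in the 4-week group (log2 change -0.50, SE 0.12, limma adjusted p = 0.0432), and of the 9 fits without 1 array only that without control replicate 3 kept the call, with adjusted p up to 0.135 in the others. The call was also lost after quantile normalization, after median centring, with every row of the table, with the compared groups only, and with arrays centred on the other receptors (adjusted p up to 0.148). This 1 lower call in 100 members stands beside 2.51% of all probe sets called lower, and 0 members were called higher, against 3.81%. The count of members called was 2 without control replicate 2 or 3, and 3 with a trended and robust prior. It was 7 (6 lower, 1 higher) with the replicate number fitted as a block. At an unadjusted p under 0.05 there were 1 higher and 16 lower members, against 12.2% and 11.7%.

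Of 100 members 72 had negative changes. The distal median was -0.18, with 54 of 70 negative, and shrank to -0.07 without 4-week replicate 2. The proximal median was -0.04, with 18 of 30 negative. It turned to 0.05 after quantile normalization, to 0.03 without 4-week replicate 2 and to 0.01 without OVA replicate 2, and was at 0.00 without OVA replicate 3. The 2 members closest to the threshold were Olfr976 (log2 change -0.54, limma adjusted p = 0.0505) and Olfr934 (-0.47, 0.0518), both of family MOR224. Olfr976 read 5.61, 5.61 and 5.81 in the 4-week group, 6.43, 6.24 and 6.00 in the OVA group, and 5.78, 5.47 and 5.87 in the control group. Olfr934 read 6.33, 6.00 and 6.27 in the 4-week group, 6.72, 6.69 and 6.61 in the OVA group, and 6.44, 6.20 and 6.63 in the control group. In both, each OVA array was above each 4-week array.

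Olfr963, also of MOR224, had a log2 change of -0.60 (limma adjusted p = 0.0737). On the higher side, Olfr910 had the largest value, 1.05 (SE 0.37, adjusted p = 0.126), with no overlap between its 4-week and OVA arrays. The other higher members named, by smallest p, were Olfr907 (0.39, adjusted p = 0.418), Olfr924 (0.44, 0.437) and Olfr855 (0.23, 0.452), all in limma's test. Groups did not overlap in 1 higher and 17 lower members, against 14.5% and 13.7% of all probe sets, and 16 of the 17 were distal.

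The largest number of calls came 4 weeks after the last challenge against control, with 14 of 100 members lower and 0 higher, against 14.4% of all probe sets called in either direction. Background was 6.45% of all probe sets called lower and 7.92% called higher. Of the 30 proximal members 9 were called (30%), and of the 70 distal members 5 (7.14%), while 192 of the 915 other olfactory receptor genes were called lower (20.98%) and 3 higher. The median log2 change was -0.42 in the proximal block and -0.19 in the distal block, and these turned to 0.01 and 0.24 when arrays were centred on the other olfactory receptors, a scaling chosen after seeing the data. The distal median was -0.08 without 4-week replicate 2 and -0.12 without control replicate 3, while the proximal median lay between -0.49 and -0.33 in the 9 fits without 1 array.

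Olfr868 again led, 4.87-fold lower than in control (log2 change -2.28, SE 0.27, limma adjusted p = 0.00256). Olfr843, of family MOR155, read 5.59, 4.50 and 5.55 in the 4-week group, 5.32, 6.35 and 5.77 in the OVA group, and 7.33, 7.51 and 6.78 in the control group. The control arrays were the highest, and the 4-week and OVA arrays overlapped. It fell 3.98-fold in the 4-week group (log2 change -1.99, SE 0.35, limma adjusted p = 0.00871).

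Olfr867, the single member of MOR143 and the gene next to Olfr868 in chromosome order, read 6.27, 5.64 and 5.52 in the 4-week group, 5.53, 6.27 and 5.93 in the OVA group, and 6.92, 7.03 and 7.04 in the control group. Control arrays were tight and above the other 6, which overlapped. The 4-week value was 2.28-fold lower (log2 change -1.19, SE 0.22, limma adjusted p = 0.0102).

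Olfr851, the other MOR155 member, read 4.33, 3.90 and 4.14 in the 4-week group, 3.83, 4.38 and 4.38 in the OVA group, and 5.14, 5.35 and 4.73 in the control group. Olfr828, the first member in chromosome order, read 2.93, 2.89 and 3.25 in the 4-week group, 3.29, 3.29 and 3.23 in the OVA group, and 3.75, 4.28 and 3.66 in the control group. In both, control arrays were above the rest. The log2 changes of the 4-week group against control were -0.95 for Olfr851 (SE 0.20, limma adjusted p = 0.0171) and -0.87 for Olfr828 (SE 0.16, adjusted p = 0.0101).

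Olfr854 was 0.68 lower on the log2 scale in the 4-week group, as in the OVA group (log2 change -0.68, SE 0.10, limma adjusted p = 0.00524). Olfr872, of family MOR145 like Olfr868, read 3.68, 3.24 and 3.19 in the 4-week group, 3.40, 3.41 and 3.35 in the OVA group, and 3.84, 3.89 and 3.93 in the control group. Its control arrays were again the highest 3, and the log2 change was -0.52 (SE 0.12, limma adjusted p = 0.0232). The last 2 proximal calls had smaller changes, -0.34 for Olfr834 (SE 0.09, adjusted p = 0.0346), the member with the lowest mean, and -0.49 for Olfr871 (SE 0.12, adjusted p = 0.0298), which is named because it completes the list of calls and was picked after its values were seen.

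In the distal block, Olfr974 (MOR171) read 5.88, 5.23 and 5.62 in the 4-week group, 5.74, 6.14 and 6.08 in the OVA group, and 6.44, 6.71 and 6.47 in the control group. Olfr898 (MOR170) read 5.95, 5.69 and 6.33 in the 4-week group, 5.94, 6.26 and 6.24 in the OVA group, and 6.70, 6.81 and 7.07 in the control group. Control arrays topped both genes, with the other 6 arrays overlapping. The log2 changes were -0.96 for Olfr974 (SE 0.17, limma adjusted p = 0.00915) and -0.87 for Olfr898 (SE 0.17, adjusted p = 0.0126).

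Olfr914 (MOR165) read 6.09, 5.40 and 5.28 in the 4-week group, 5.39, 5.81 and 5.41 in the OVA group, and 6.20, 6.50 and 6.51 in the control group. Olfr945 (MOR171) read 5.16, 4.66 and 4.72 in the 4-week group, 4.63, 4.86 and 4.87 in the OVA group, and 5.34, 5.70 and 5.21 in the control group. Olfr963 (MOR224) differed from these, with 6.01, 6.10 and 6.34 in the 4-week group, 6.44, 6.78 and 7.02 in the OVA group, and 6.71, 6.51 and 7.0 in the control group. Olfr914 and Olfr945 had their control arrays above the other 6, whereas for Olfr963 the OVA and control arrays overlapped and the 4-week arrays were the lowest of the 9. Log2 changes against control were -0.82 for Olfr914, -0.56 for Olfr945 and -0.59 for Olfr963, with limma adjusted p of 0.0346, 0.0487 and 0.0489.

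The calls for Olfr868, Olfr843, Olfr867, Olfr974, Olfr828, Olfr898 and Olfr854 held in all 9 fits that left out 1 array. Olfr851 was lost without 4-week replicate 2 or control replicate 2, and Olfr914 and Olfr872 without replicate 2 or 3 of the 4-week or the control group. Olfr871 was lost without replicate 1 or 2 of either of these groups. Olfr834 was lost in 6 of the fits (all but those without OVA replicate 1, OVA replicate 3 or control replicate 2), Olfr963 in 7 (all but those without OVA replicate 1 or 3) and Olfr945 in 8 (all but that without 4-week replicate 1), with adjusted p of at most 0.145.

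Under the alternatives other than leaving out 1 array, Olfr868, Olfr843, Olfr867, Olfr974, Olfr828, Olfr898 and Olfr851 passed wherever they were tested. Centring arrays on the other olfactory receptors ended the calls for the 7 others: Olfr854 then had a log2 change of -0.25 (limma adjusted p = 0.168), Olfr872 one of -0.09 (0.580) and Olfr834 one of 0.09 (0.605), and Olfr871, Olfr914, Olfr945 and Olfr963 were lost as well. Quantile normalization ended the calls for Olfr872, Olfr945, Olfr963, Olfr834 and Olfr871. A fit of the compared groups only ended those for Olfr872, Olfr914, Olfr945, Olfr963 and Olfr834. The replicate block ended those for Olfr914 and Olfr945, the table with every row those for Olfr914, Olfr945 and Olfr963, and median centring that for Olfr963.

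The number of members called lower was 7 without 4-week replicate 2 and 9 without control replicate 2, against 14 with all arrays, and it reached 19 without 4-week replicate 1. Without 4-week replicate 2 the proximal block kept 5 calls and the distal block 2.

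Uncalled members on the higher side were Olfr847 (log2 change 0.46, limma adjusted p = 0.104), Olfr969 (0.29, 0.0929), Olfr924 (0.67, 0.181) and Olfr857 (0.45, 0.296). Olfr847 is a proximal member that went against its block: it read 7.79, 7.55 and 7.65 in the 4-week group, 7.40, 8.10 and 7.93 in the OVA group, and 7.21, 7.0 and 7.39 in the control group. Its control arrays were the lowest of the 9, but it passed in no contrast. The 4-week and control arrays did not overlap in 2 members that were higher and 23 that were lower, against 16.6% and 18.4% of all probe sets. At an unadjusted p under 0.05, 2 members were higher and 29 lower, against 15.4% and 17.5%.

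**Figure D2:**
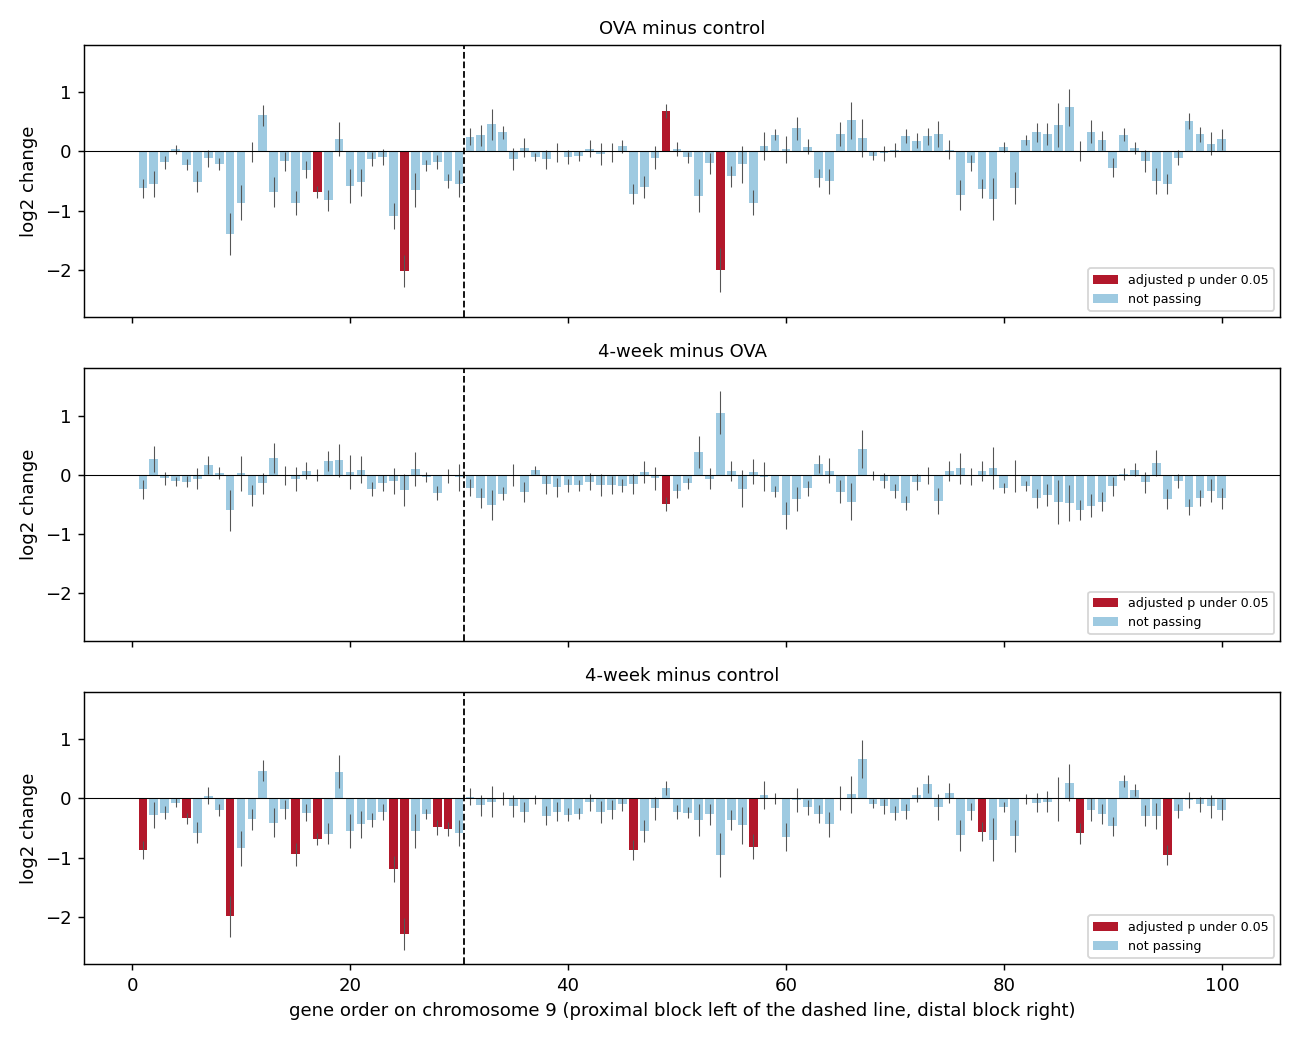
Log2 change of each of the 100 members (vertical axis; bars, with lines of 1 SE) against its order on chromosome 9 (horizontal axis), in the 3 contrasts; dark red bars passed the test and the dashed line parts the 30 proximal from the 70 distal members. The 9 proximal calls of the 4-week group against control stand left of the line and the 5 distal calls right of it.

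Over all 100 members the median log2 change was -0.10 for the OVA group against control, -0.12 for the 4-week group against the OVA group and -0.23 for the 4-week group against control. The medians over all probe sets were -0.02, -0.02 and -0.04. Both negative medians against control turned positive, to 0.29 and 0.20, when arrays were centred on the other olfactory receptors, and the first also turned to 0.08 over the 38 members in the upper 60% by mean. Outside the range, the 915 other receptor genes had medians of -0.20, -0.10 and -0.33 in these contrasts. The contrasts share arrays, so their values are given side by side and are not independent.

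With 84 of 100 values negative at 4 weeks against control, the members stood beside 88.3% of the other receptor genes and 57.5% of all probe sets. In the OVA group against control 59 of 100 were negative, beside 72.6% and 54.6%. For other runs of the numbering, the 108 genes from Olfr543 to Olfr692 had medians of 0.24, -0.32 and -0.12, and the 233 genes from Olfr987 to Olfr1318 had -0.22, -0.04 and -0.31. No test of these differences between sets of receptors was made.

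**Figure D3:**
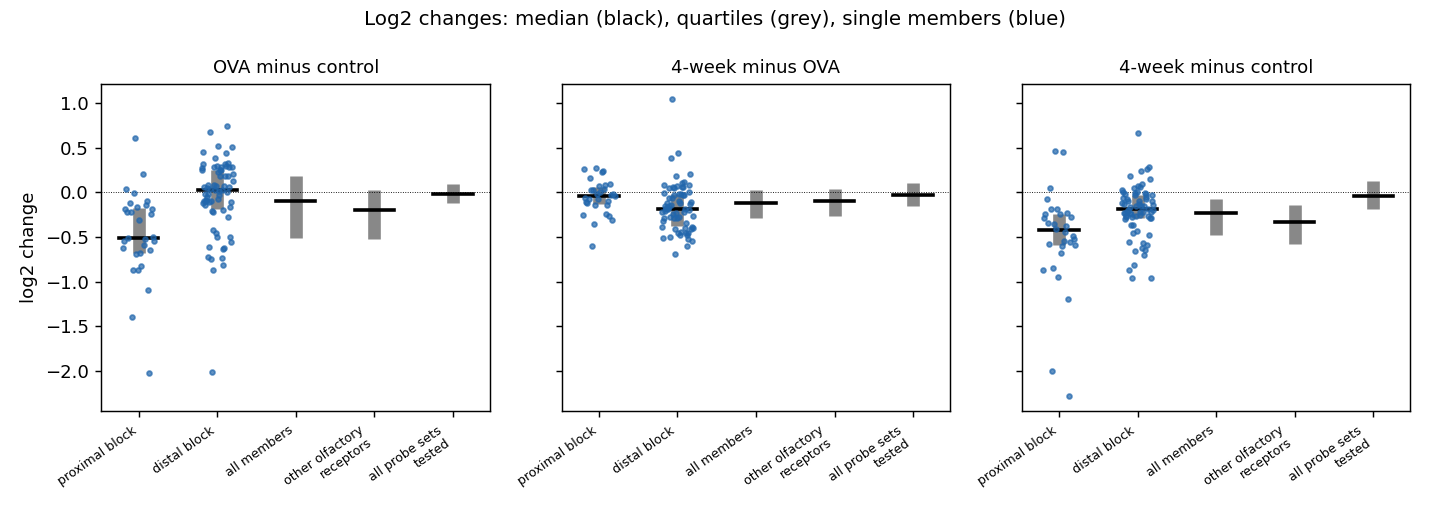
Log2 change (vertical axis) in the 3 contrasts, with blue points for single members of the proximal and the distal block, black lines for medians and grey bars for quartiles; all members, the 915 other olfactory receptor genes and all 23410 probe sets are shown as median and quartiles. The proximal medians of -0.51 and -0.42 against control lie below the distal medians of 0.03 and -0.19.

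The contrast between blocks could be read within each array, where a common scaling cancels. For each member the mean over the 9 arrays was subtracted, and the median of these deviations over the distal members was subtracted from that over the proximal members. The result was 0.06, 0.04 and -0.16 in the 4-week group, -0.23, -0.07 and -0.24 in the OVA group, and 0.26, 0.34 and 0.04 in the control group. All OVA arrays were below all control arrays, while the 4-week arrays overlapped both groups. These values describe the arrays, and no p was computed over the members.

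The blocks differed in signal, and a split at the upper 60% of probe sets by mean did not match them. In the control group the dimmer members had a median level, averaged over arrays, of 4.29 in the proximal and 4.84 in the distal block, and in the OVA group the brighter ones had 5.97 and 6.72. A difference between the blocks therefore cannot be told apart from one of signal by this split, and its values are given as a description. The 5 proximal members above the split had a median log2 change of -0.59 in the OVA group against control, and the 25 dimmer ones had -0.31. Of the distal members, the 33 brighter ones had a median of 0.18 and the 37 dimmer ones of -0.05. At 4 weeks against control the medians were -0.58 and -0.37 for proximal members and -0.15 and -0.19 for distal members.

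The families had log2 changes of different sign in the OVA group, and only some of the 25 are described here. The largest, the distal family MOR171 with 24 genes, had 13 positive and 11 negative changes against control (median 0.02). All 5 MOR145 genes had negative log2 changes against control, with a median of -0.55 that stayed negative, at -0.16, when arrays were centred on the other receptors. Besides Olfr868 and Olfr872 these were Olfr866 (-0.09), Olfr869 (-0.65) and Olfr873 (-0.55), none of which passed the test. At 4 weeks against control all 5 were again negative, with a median of -0.55 and calls for Olfr868 and Olfr872. The 5 genes are proximal, and in each of these contrasts 27 of the 30 proximal members were negative.

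MOR165, a distal family of 8, had 8 negative changes in the OVA group against control (median -0.48) and 8 at 4 weeks against control (median -0.40), and the second median became 0.03 with arrays centred on the other receptors. Olfr910 and Olfr914 were called in 1 of these contrasts each. MOR155 had 2 members, Olfr843 and Olfr851, both called lower at 4 weeks against control, with OVA changes of -1.40 (limma adjusted p = 0.0984) and -0.87 (adjusted p = 0.0782).

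Some other distal families had mostly positive values in the OVA group against control, where 38 of the 70 distal members were positive. The 5 MOR161 genes (Olfr874, Olfr875, Olfr876, Olfr877 and Olfr922) had log2 changes of 0.25 to 0.45 in the OVA group against control and of -0.51 to -0.22 in the 4-week group against the OVA group. Of the 8 MOR224 genes, 7 had positive changes in the OVA group against control (median 0.31) and 8 had negative ones in the 4-week group against the OVA group (median -0.47). The 3 MOR223 genes at the distal end, Olfr978, Olfr979 and Olfr980, had medians of 0.20 and -0.39. None of these genes passed in either contrast, and the signs of these family medians held under each scaling tried. Both contrasts use the same OVA arrays, so opposite signs in them are not separate evidence.

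**Figure D4:**
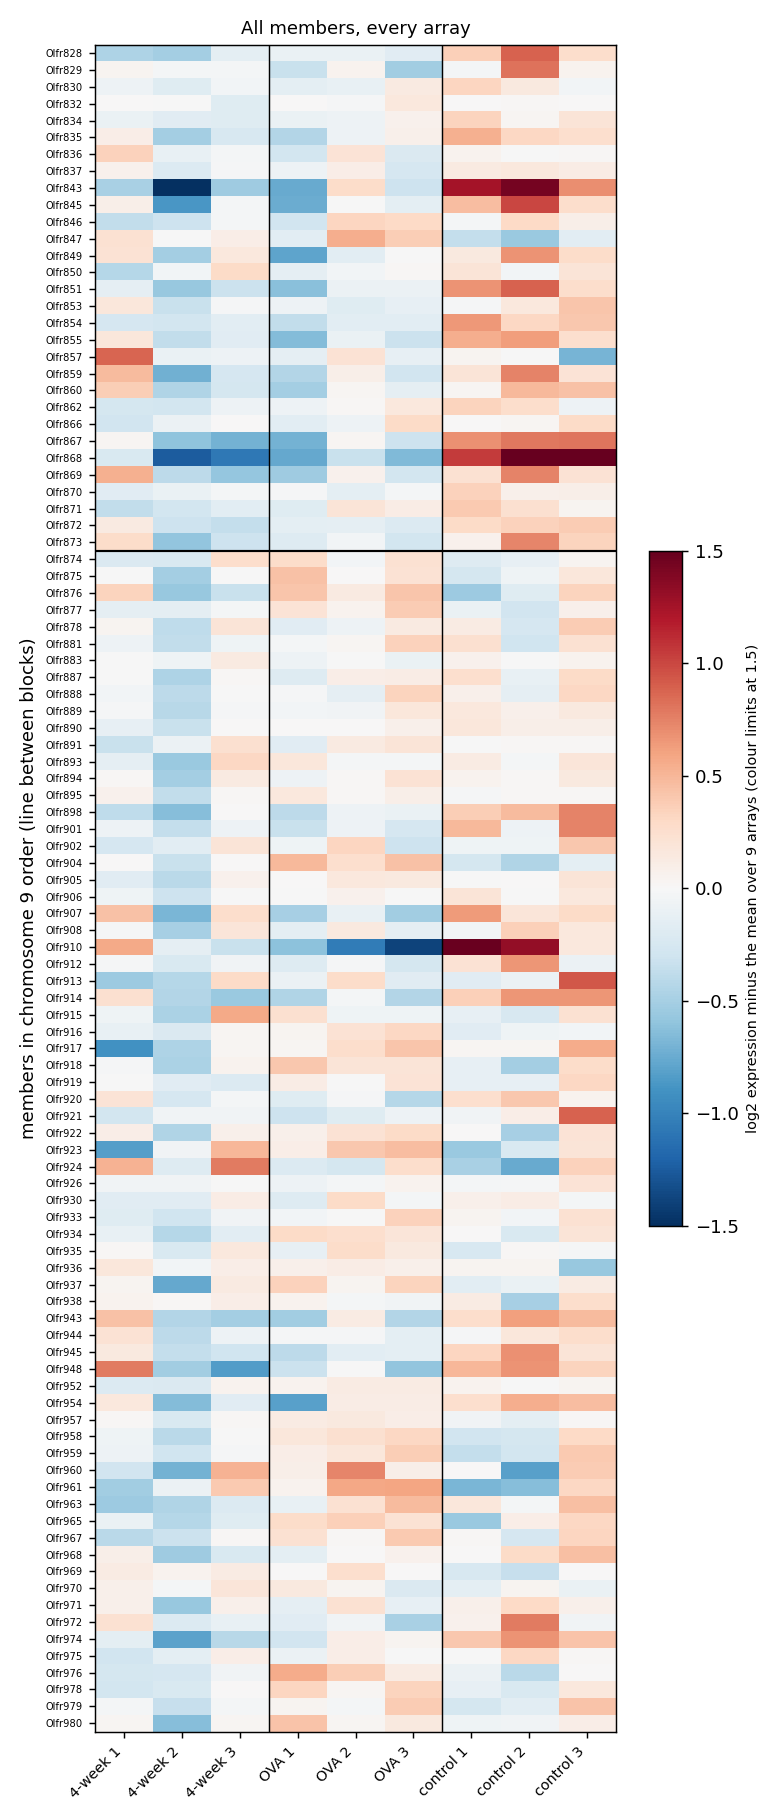
Log2 expression of all 100 members (rows, in chromosome 9 order) on the 9 arrays (columns), coloured by the difference from the member's mean over the arrays, with colours ending at 1.5 log2 units; the horizontal line parts the blocks and the vertical lines part the groups. Olfr843, Olfr868 and Olfr910 carry the darkest cells, and the column of 4-week replicate 2 is blue in most rows.

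One array stood out among the members. Replicate 2 of the 4-week group had the lowest value of its group in 73 of 100 members, against 28.7% of all probe sets, and replicate 1 the highest in 48. The distal members' median level was 5.82, 5.42 and 5.79 in the 4-week group, 5.78, 5.84 and 5.88 in the OVA group, and 5.81, 5.75 and 5.94 in the control group, so that 4-week replicate 2 was the lowest of the 9. The other olfactory receptors were lowest there too, with 5.38, 4.99 and 5.27 in the 4-week group, 5.17, 5.36 and 5.23 in the OVA group, and 5.57, 5.64 and 5.72 in the control group. Without that array the members' median log2 change was -0.04 in the 4-week group against the OVA group and -0.13 against control. The 0.04 by which the members' median level in the 4-week group exceeded that of the OVA group, averaged over arrays, has the opposite sign to the median of the single changes (-0.12).

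Genes that act with the receptors were counted from lists chosen, like the members, with earlier results of these data known. Of 19 measured genes of mature neurons and odour transduction, 0 passed in the OVA group against control, and at 4 weeks against control 4 fell and 1 rose. In the latter contrast 6.45% of all probe sets were called lower and 7.92% higher. Slc24a4, the exchanger that ends the calcium signal of the odour response, fell by 0.92 on the log2 scale (limma adjusted p = 0.00453), Carns1, which makes carnosine, by 1.00 (adjusted p = 0.00642), the adhesion molecule Kirrel3 by 0.68 (adjusted p = 0.0191) and Gnal by 0.44 (adjusted p = 0.0349). S100a5, a calcium-binding protein whose transcript follows neuronal activity, rose by 0.35 (adjusted p = 0.0434). The receptor cascade genes Adcy3 and Cnga2 had log2 changes of -0.31 (adjusted p = 0.305) and 0.14 (adjusted p = 0.384), and Omp one of -0.48 (adjusted p = 0.0669).

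In the 4-week group against the OVA group Slc24a4 fell by 0.59 (limma adjusted p = 0.0344) and S100a5 rose by 0.52 (adjusted p = 0.0196), again of 19. In this contrast 2.51% of all probe sets were called lower and 3.81% higher. Among 9 trafficking and folding genes, Atf5, a transcription factor of the response set off by receptor protein in the endoplasmic reticulum, fell by 0.50 and Ddit3, a transcription factor induced by stress of that organelle, by 0.43 (adjusted p = 0.0477 and 0.0153). At 4 weeks against control Atf5 fell by 0.61 and Rtp1 by 0.63 (adjusted p = 0.0149 and 0.0304). In the OVA group against control 0 of the 9 passed.

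Of 11 measured genes of receptor choice, 2 fell at 4 weeks against control, Ebf4 by 0.73 (limma adjusted p = 0.0232) and Lbr, the lamin B receptor that shapes heterochromatin, by 0.49 (adjusted p = 0.0113). Lhx2 had a log2 change of -0.50 (adjusted p = 0.0663) and Ldb1 one of 0.10 (adjusted p = 0.387). In the other contrasts 0 of the 11 passed.

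The mean level of these lists on each array stands here beside that of the members. The mean level of the 19 mature neuron genes was 10.08, 9.65 and 9.70 in the 4-week group, 9.90 to 10.05 in the OVA group, and 9.90, 10.03 and 10.30 in the control group, with overlap between all groups. The mean of 15 genes of immature neurons and progenitors was 7.72, 7.54 and 7.51 in the 4-week group, 7.81, 7.80 and 7.66 in the OVA group, and 7.23, 7.24 and 7.33 in the control group, so the control arrays were the lowest. Of these 15 genes, 6 rose and 0 fell in the OVA group against control, where 0.782% of all probe sets were called higher. At 4 weeks against the same control arrays 6 rose and 0 fell, beside 7.92% of all probe sets called higher. The genes called were not all the same. In limma's test Gng8, a G protein gamma subunit, had an adjusted p of 0.0234 in the OVA group and 0.189 at 4 weeks. The transcription factor gene Neurod1 had a limma adjusted p of 0.106 in the OVA group and 0.0160 at 4 weeks. Not all of the 15 were higher at 4 weeks against control. Lhx2 (-0.50), Ncam1 (-0.32), Dcx (-0.25) and Dpysl5 (-0.22) had negative log2 changes without passing, and the rest had positive ones. Lhx2 is in this list and in that of receptor choice. The proximal members' median level was 4.24, 3.98 and 4.15 in the 4-week group, 3.95, 4.35 and 4.15 in the OVA group, and 4.46, 4.68 and 4.40 in the control group, with the control arrays highest. 

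Few single markers of other cells were called, but the mean levels of some lists differed between groups. Of 7 sustentacular cell genes and 9 macrophage genes 0 passed in any contrast, and of 6 vomeronasal neuron genes 1, the formyl peptide receptor Fpr-rs4, fell at 4 weeks against control. Of 6 ciliated cell genes, the dynein heavy chain Dnah9 rose in the 4-week group against the OVA group. Of 10 neutrophil genes, Csf3r, the receptor for granulocyte colony-stimulating factor, rose in the OVA group against control. No other gene of this list passed there, and the median log2 change of the 10 was -0.44. Ngp, Camp, S100a8, Mpo, Elane and S100a9 had negative changes in that contrast, and Cxcr2, Ltf and Retnlg positive ones. Csf3r fell in the 4-week group against the OVA group. At 4 weeks against control 2 of the 10 fell (Elane and Mpo, both granule enzymes), beside 6.45% of all probe sets called lower. The ciliated cell mean was 8.23, 8.22 and 8.14 in the 4-week group and 7.86, 7.89 and 7.46 in the OVA group. In the control group it was 8.18, 7.87 and 7.66, so that the 4-week arrays lay above the OVA arrays and overlapped the control range. The genes of this list differed in size of change in the 4-week group against the OVA group. Dnah5 and Dnah9 had log2 changes of 1.13 and 0.91, and Foxj1, Ccdc39, Tekt1 and Rsph1 had 0.05, 0.16, 0.24 and 0.28. The macrophage mean was 6.03, 6.18 and 6.07 in the 4-week group, 6.80, 6.11 and 7.11 in the OVA group, and 6.32, 6.09 and 5.81 in the control group, with 2 OVA arrays above all others. The neutrophil mean was 7.89, 6.97 and 7.46 in the 4-week group, 7.99, 7.59 and 7.58 in the OVA group, and 8.29, 8.22 and 7.33 in the control group. It was 0.51 lower at 4 weeks than in control with overlapping arrays, and 4-week replicate 2 was the lowest of the 9.

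A list of 20 genes of tissues that were not sampled, whose signal was low, also had lower values at 4 weeks. Its mean level was 4.53, 4.58 and 4.64 in the 4-week group, 4.60, 4.67 and 4.73 in the OVA group, and 4.74, 4.77 and 4.72 in the control group. The 4-week arrays lay below all control arrays, and the OVA arrays overlapped both groups. The median log2 change of these 20 genes was -0.11 in the OVA group against control. It was -0.09 in the 4-week group against the OVA group and -0.16 at 4 weeks against control. In the last contrast the proximal members had -0.42, the distal members -0.19 and all members -0.23. Averaged over the arrays of a group, the list's mean level was 4.58 to 4.74. The members' median level was 4.12 to 4.51 in the proximal block and 5.68 to 5.83 in the distal block. Of the 20, 1 was called lower at 4 weeks against control and 0 in the other contrasts. The part of these marker levels and of low signal in the members' changes was not tested.

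**Figure D5:**
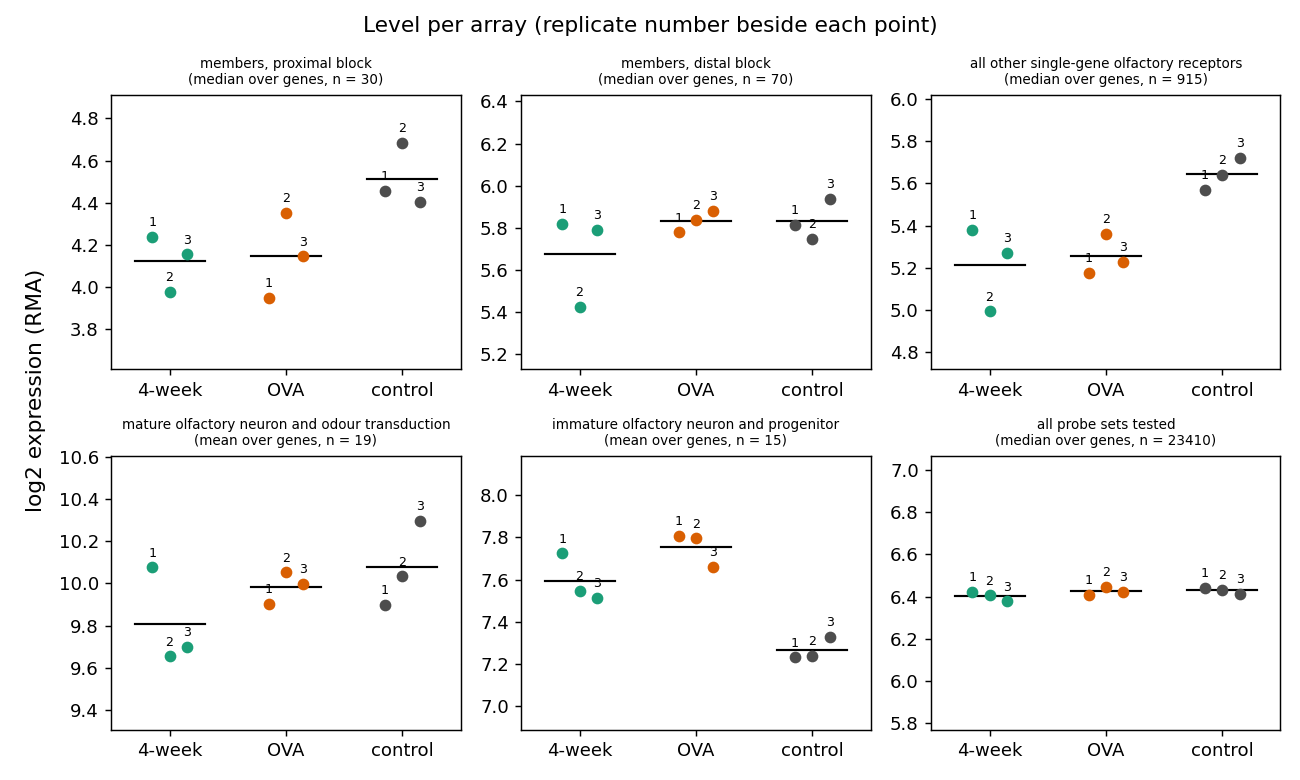
Level on each array (vertical axis, log2 expression; 1 point per array with its replicate number, bar at the group mean) of the proximal and distal members and the other olfactory receptors, as medians over genes, of 2 neuron marker lists, as means over genes, and of all probe sets, as the median. Control arrays are the highest for proximal members and the other receptors and the lowest for the immature neuron list, and array medians over all probe sets stay between 6.38 and 6.45.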

How the data were processed

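Labelled RNA of each nasal mucosa sample went on its own Affymetrix Mouse Gene 1.0 ST array, according to the labels. The authors deposited log2 values for each probe set, computed with RMA per the submitters' processing notes. The log2 scale was inferred from the range of the values, and neither the RMA software nor the file's genome build is given in the sources used here. RMA normalizes across arrays, so changes are relative to the bulk of probe sets. Of 35556 rows, the 23410 with a gene symbol in the platform annotation were fitted together in limma 3.58.1 (R 4.3.3) with lmFit, contrasts.fit and eBayes, 1 mean per group over 9 arrays, and 6 residual and 2.98 prior degrees of freedom. Tests were two-sided, p-values were adjusted by Benjamini-Hochberg over all 23410 within a contrast, and 0.05 was the threshold. The fit was tested on simulated data. No filter on low values was applied.

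RefSeq (GRCm38.p6) gave gene order, class, family and promoter windows.

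Members named in a contrast were up to 12 higher and up to 12 lower calls by log2 change, filled to 4 per direction with the smallest p, plus the 10 highest and 4 lowest means and the 4 widest ranges in a group. The members, lists and tests were chosen with earlier results of these data known. Alternatives were other scalings, filters, sample sets, priors, a replicate block and leaving out each array.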

Additional observations from a re-analysis of the deposited data

How the results depend on the processing

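The counts of members called moved with several choices. In the OVA group against control, 4 members were called, against 2 in the upper 60% of probe sets by mean (38 members), 2 with every row of the table, 2 with arrays of the compared groups only, and 0 to 7 without 1 array (0 without OVA replicate 1 or 3, 1 without control replicate 2, 2 without 4-week replicate 3 or control replicate 1 or 3, 7 without 4-week replicate 1). In the 4-week against the OVA group, 1 member was called, against 0 after quantile normalization, median centring, with every row or with the compared groups only, 3 in the upper 60%, 3 with a trended and robust prior, and 0 to 2 without 1 array (2 without control replicate 2 or 3; 0 without 4-week replicate 1 or 2, or OVA replicate 2 or 3). At 4 weeks against control, 14 members were called, against 9 after quantile normalization, 6 in the upper 60%, 9 with the compared groups only, and 7 to 19 without 1 array. Centring arrays on the other olfactory receptors, added after seeing the data, gave 44 (37 higher), 0 and 25 (18 higher) calls, and moved the median over all probe sets to 0.37, 0.02 and 0.39, so that changes there are relative to those receptors. It reversed the members' medians to 0.29 in the OVA group and 0.20 in the 4-week group against control, and the filter to the upper 60% of probe sets by mean reversed the median of the OVA group against control to 0.080. Without 1 array the medians were -0.12 to -0.05, -0.20 to -0.04 and -0.30 to -0.13 in the same order of contrasts. Fitting the replicate number as a block gave 4, 7 (6 lower, 1 higher) and 15 calls. The numbers do not pair the samples by the labels. Same-numbered arrays of different groups correlated at -0.04 to 0.33, and 7 of 9 arrays correlated best with their own number. The range of -0.04 to 0.33 is on another measure than the 0.973 to 0.988 given above for whole arrays of different groups. Averaging a gene's probe sets changed no value, since each member has 1. For members named by the rule in a contrast, 282 values kept direction and side of the threshold under the alternatives that kept all arrays. Of the others, 22 newly passed, 29 no longer passed and 0 reversed. Without 1 array these counts were 227, 8, 53 and 0. The counts leave out the calls for Olfr834 and Olfr871 at 4 weeks against control. Of these, Olfr834 reversed to 0.09 when arrays were centred on the other receptors. Over all probe sets, calls in the OVA group against control were 305 (60% higher), against 143 with every row, 109 with the compared groups only (47.7% higher), 10516 centred on the receptors (98.7% higher) and 63 to 305 without 1 array; calls of the 4-week against the OVA group were 1481, against 737 with the compared groups only, 509 centred on the receptors and 446 to 1361 without 1 array, and calls at 4 weeks against control 3364 (55.1% higher), against 2054, 12105 (98.2% higher) and 1560 to 2966. The causes were not tested. Signal over background is unknown, since no detection calls were used here.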

Other observations

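Beside the 100 members, 9 probe sets in the range were set aside. Of these, 6 are annotated to several receptor genes each, 2 of them (Olfr954 with Olfr951, and Olfr938 with Olfr955 and Olfr952) to members' numbers alone, and 3 are annotated to the pseudogenes Olfr911-ps1, Olfr856-ps1 and Olfr947-ps1. None of the 9 was called in any contrast by limma, and the smallest adjusted p was 0.068, for the probe set of Olfr150 and Olfr919 at 4 weeks against control (log2 change -0.40). That probe set read 8.05, 7.66 and 7.82 in the 4-week group, 7.94, 8.28 and 8.25 in the OVA group, and 8.11, 8.24 and 8.38 in the control group.

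In 49 of the 100 members the same value was printed for at least 2 of the 9 arrays, as in 52.1% of all probe sets.

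Deviations from the group means ran together among members. Over the 9 arrays, the median correlation of these deviations was 0.48 for 98 pairs of adjacent members of a block and 0.37 for 2752 other pairs of a block, 0.39 for 413 pairs of 1 family and 0.25 for 4537 pairs of different families. All points share the same 9 arrays and their normalization.

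The windows of the 13 members that fell at 4 weeks against control and had a sequence held TAATTA or TAATGA in 8 cases (61.5%), and those of the 74 other members in 29 (39.2%). Most of the 13 were proximal, the block in which these letters were more frequent, and no test of the difference was made.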
